A study of Mus musculus with 2 samples.

Results

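The microglia signature genes are 33 genes whose high expression sets resident microglia apart from other brain cells, or marks them as myeloid cells. They were measured in microglia sorted from the spinal cord of mice with an atopic diathesis and of control mice. Atopic diathesis is a predisposition to allergic disease. The members were taken by gene name in the array files, and all 33 of 33 were found among 34797 gene names, with 45 probes in all. The samples were 1 atopic diathesis array, titled activated microglia, and 1 control array, titled normal microglia. The organism is the mouse, and the labels give the difference between the groups under genotype or variation, with no strain, age or number of animals. The sources used here do not say how the atopic state was induced or which markers the cells were sorted by. The comparison asks how spinal cord microglia of these mice differ from those of controls.

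Microglia are the resident macrophages of the brain and spinal cord. They arise from yolk sac progenitors, and they persist through signalling of the CSF1 receptor. Signals from the nervous tissue, TGF-beta among them, keep up a set of genes that blood monocytes express weakly or not at all. This signature includes surface proteins such as Tmem119, Gpr34 and Fcrls and secreted proteins such as Olfml3. In many injury and disease states, parts of it are known to be expressed at lower levels. A further 6 members, Laptm5, Ptprc, Aif1, Cd68, Ly86 and Cd53, are expressed by other macrophages or leukocytes as well.

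Each value is the fluorescence of 60-base probes. The sequences shown here are those behind most differences of at least 2-fold and behind the clearest cases of probes of one gene that gave different answers. They are copied from the array files, which place them on mouse build mm9. Of the probes, 4 are printed whole and the others by 30 of their 60 bases. Where they lie relative to coding and untranslated regions was not analysed here. The first pair belongs to Crybb1, at chr5:112692655-112696385 (across an intron) and chr5:112696348-112696407, plus strand, where capitals mark the 38 bases that both probes share.
Crybb1 probe starting at base 455 of its transcript: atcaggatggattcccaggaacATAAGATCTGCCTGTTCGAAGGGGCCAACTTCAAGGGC
Crybb1 probe starting at base 477: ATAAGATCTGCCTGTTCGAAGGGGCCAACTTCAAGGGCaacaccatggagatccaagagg

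The next set holds the other genes that were lower by at least 2-fold. The Sgce probe lies at chr6:4639584-4639643 (minus strand), the Abi3 probe at chr11:95693897-95693956 (minus strand) and the Gpr56 probe at chr8:97537978-97538037 (plus strand).
Sgce, all 60 bases: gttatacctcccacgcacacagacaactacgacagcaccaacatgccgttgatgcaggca
Abi3, first 30 bases: ttccacagtcaaagctggactaaggacctg
Gpr56, first 30 bases: taccagttcatttgtcttttgatattaaag

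Of the genes that were higher by at least 2-fold, 3 are shown by their probes. Lpcat2 was read at chr8:95443101-95443160 (plus strand) and Ifngr1 at chr10:19329923-19329982 (plus strand). Pmepa1 has a pair of probes at chr2:173049966-173050025 and chr2:173049970-173050029 (minus strand). These overlap by 56 bases with 1 mismatch, G4A, counted from the 5′ end of the brighter probe and marked by the capital.
Lpcat2, first 30 bases: ccatgtctgcatactcttgctatcacttac
Ifngr1, first 30 bases: atggaacatgttggtggaagcttgtacaat
Pmepa1 brighter probe, bases 1 to 30: ggtGccaatgttggcgttctgaaaagccgc
Pmepa1 dimmer probe, bases 5 to 34: ggtAccaatgttggcgttctgaaaagccgc

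Each group has 1 array, so the differences have no replicate check, carry no test and describe these 2 samples. The arrays carry 55681 probes, of which 15386 (27.6%) exceeded background clearly in atopic diathesis and 13430 (24.1%) in control, and no spot was saturated. The 9204 genes called measured had 1 probe or more that was clear of background on both arrays. Differences are log2 signal, atopic diathesis minus control, relative to the median measured gene, whose own unscaled difference was -0.03. The error at hand is the spread of spots that carry the same probe, and it depended on brightness. The 95% interval of a difference was ±0.58 for 34 dim probes (mean signal up to 88.9), ±0.34 for 33 middle ones and ±0.16 for 34 bright ones (mean signal from 403). These widths, given in square brackets as bounds below, cover spot error alone and say nothing of how animals, cell sorts or amplifications vary. They are those of a single spot, also for genes averaged over several probes, and do not cover the spread between probes.

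Markers of the labelled cell type were present. All 11 of 11 microglia markers were measured on both arrays, at log2 differences of -0.44 to 0.55. None was 2-fold or more from the median gene (all measured genes: 32.9%). All but Siglech and Aif1 had a mean signal above 886, and among all genes that bright the share was 15.3%. The markers are a chosen list, and other genes of the microglia signature did pass 2-fold, as given below. Of 106 genes that mark 11 other kinds of cell, 76 were at background on both arrays, and the lists for border-associated macrophages, neutrophils, mast cells and dendritic cells had no gene measured on both. Of the 17 measured on both arrays, 14 lay within 2-fold (all measured genes: 6175 of 9204). A further 8 were detected in atopic diathesis alone and 2 in control alone. Of the rest, 1 (Mobp) was detected on different probes on the 2 arrays, and 2 had no probe. Over the whole array, 13546 of 34797 gene names had a probe clear of background on at least 1 array, against 9204 on both. Most gene names of the array were thus at background on both arrays, as were most of the 106. More probes were clear of background in atopic diathesis (15386) than in control (13430). The share of all genes detected in 1 group alone was not computed. Astrocyte genes were among the 8 detected in atopic diathesis alone. Sox9 read 253 in atopic diathesis and 4.81 in control microglia, at least 13.1-fold higher, and Gja1 read 241 and 10.4, at least 12.5-fold higher. The astrocyte gene S100b read 672 and 163 (log2 difference 2.08), whereas Gfap (-0.23), Slc1a3 (-0.01) and Aldoc (-0.61) lay within 2-fold, and Aqp4, Aldh1l1 and Slc1a2 were at background on both arrays. The summed signal of the 9 astrocyte genes was 2308 in atopic diathesis and 1530 in control microglia. Of oligodendrocyte genes, Cnp was higher (1.70) and Mag at least 2.53-fold higher. The brightest Mobp probe went the other way, with 6.91 in atopic diathesis and 96.6 in control microglia. The mast cell protease Mcpt4 read 56.5 in atopic diathesis and 5.02 in control microglia on 1 probe, at least 2.92-fold higher. The other 7 genes of the mast cell and basophil list were at background on both arrays. Endothelial genes went both ways, Pecam1 at least 6.57-fold higher, Flt1 at least 16.1-fold lower and Ly6c1, which monocytes also express, lower (-1.03). Fn1, from the monocyte list, was at least 3.72-fold lower. The part of these other cells in the values of the signature genes was not tested.

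**Figure D1:**
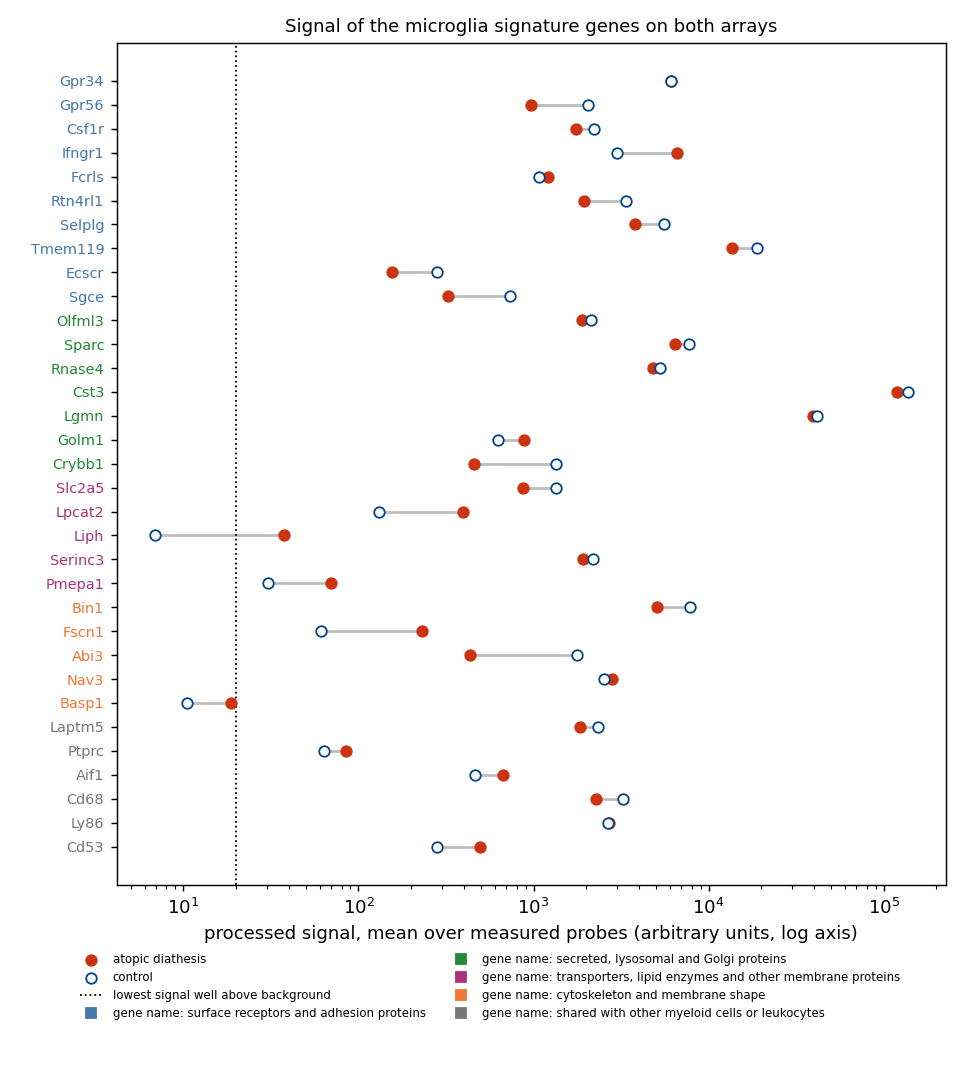
Processed signal of the 33 microglia signature genes (horizontal axis, arbitrary units, logarithmic) in atopic diathesis (filled) and control microglia (open), 1 array each, with gene names coloured by role. Values are to be compared within a row, since probes of different genes are not on a common scale; Liph crosses the dotted limit on the atopic diathesis array alone and Basp1 lies below it on both.

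Most signature genes lay within 2-fold, as did most of all measured genes, and those past 2-fold went both ways. Of 33 members, 31 were measured. Differences of 2-fold or more were found upward in 4 (all measured genes: 17.3%) and downward in 4 (all measured genes: 15.6%), and 23 lay in between. The share past 2-fold in either direction was 25.8% among the members, against 32.9% over all measured genes. The median difference was -0.16 for the members and 0.00 for all measured genes, by construction of the scale, and 19 of the 31 lay below the median gene. Their median distance from the median gene, in either direction, was 0.52, against 0.60 over all measured genes. For 6 members (19.4%) the difference was within the spot error, which held for 32.5% of all measured genes. These counts rest on the scaling. The 75th percentile of all probes, as the scale instead, places the median gene itself at -0.50. On that scale 2 of the 31 members lay past 2-fold upward (all measured genes: 987 of 9204). Downward there were 9 members (all measured genes: 2499 of 9204).

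**Figure D2:**
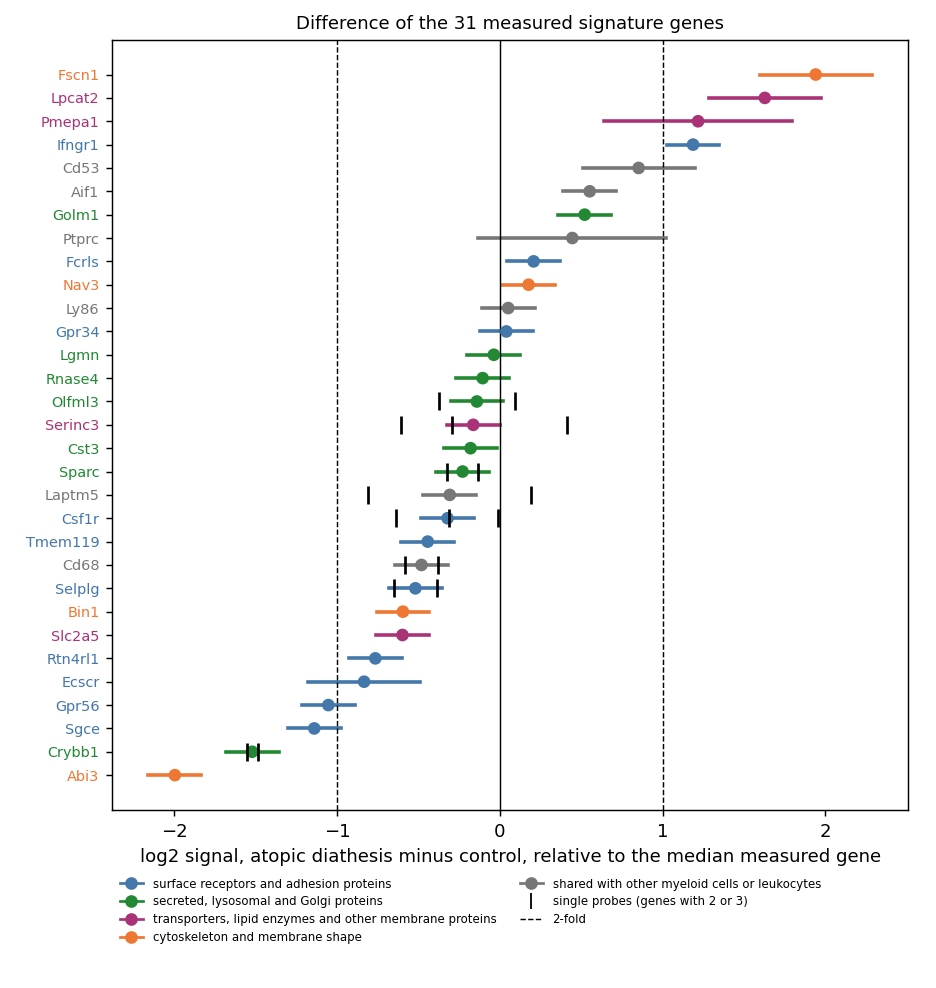
Log2 difference between atopic diathesis and control microglia, relative to the median measured gene, for the 31 measured signature genes in order of size. Points are gene means coloured by role, lines are intervals from spot error only, black ticks are single probes where a gene has 2 or 3, and dashed lines mark 2-fold; Fscn1 (1.94) and Abi3 (3.99-fold lower) stand at the ends.

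The bright members differed less than the dim ones. Measured genes were split into 5 equal groups by mean signal, and the brightest group, with a mean signal from 886, held 20 of the 31 members. In that group 1 member, Ifngr1, was past 2-fold upward (all genes of the group: 6.84%) and 1, Gpr56, downward (all genes of the group: 8.42%), which makes 10% of the members in either direction against 15.3% of the group. Their median distance from the median gene was 0.27, against 0.36 for all genes of the group. Of the 11 dimmer members, 6 lay past 2-fold. In the 4 dimmer groups, from low to high signal, the share of all genes past 2-fold in either direction was 20.2%, 46%, 46.5% and 36.7%.

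**Figure D3:**
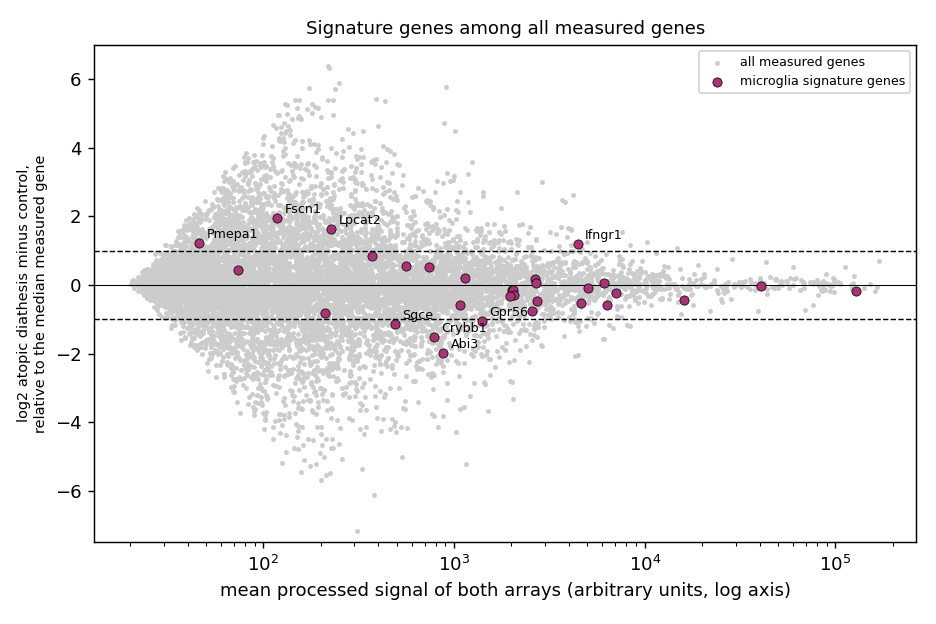
Log2 difference (vertical axis, atopic diathesis minus control, relative to the median measured gene) against the mean signal of both arrays (horizontal axis, arbitrary units, logarithmic) for 9204 measured genes (grey) and the 31 measured signature genes (purple, with black edges). Named genes lie past the dashed 2-fold lines; Ifngr1 and Gpr56 are the ones in the brightest of 5 equal groups of genes.

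Among the 10 surface receptors and adhesion proteins, all were measured, 1 was past 2-fold upward (all measured genes: 17.3%) and 2 downward (all measured genes: 15.6%), with a median of -0.48. In either direction this is 30% of the group, against 32.9% of all measured genes. The receptor that stood out was Ifngr1, the ligand-binding chain of the interferon gamma receptor, through which interferon gamma activates macrophages. It read 6632 in atopic diathesis and 2979 in control microglia, 2.28-fold higher (log2 difference 1.19 [1.03, 1.35]). Gpr56, an adhesion G protein-coupled receptor now called Adgrg1 that marks microglia of embryonic origin, read 963 in atopic diathesis and 2044 in control microglia. Its log2 difference was -1.05 [-1.22, -0.89], so the interval reaches across the 2-fold limit. Sgce, the epsilon subunit of the sarcoglycan complex that links membrane and cytoskeleton, read 326 and 735 (-1.14 [-1.30, -0.98]), which also spans the limit. The probes of these genes are printed above.

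The best known surface markers lay closer together. Tmem119, a transmembrane protein used to tell microglia from infiltrating macrophages, read 13633 in atopic diathesis and 18955 in control microglia (-0.44 [-0.60, -0.28]). Gpr34, a receptor for lysophosphatidylserine, read 6119 and 6087 (0.04 [-0.12, 0.20]), a difference smaller than the spot error. Fcrls, an Fc receptor-like protein, read 1211 and 1072 (0.21 [0.05, 0.37]). The CSF1 receptor Csf1r, on which microglial survival depends, read 1743 and 2226 over its 3 probes (-0.32 [-0.48, -0.16]). None of these 4 reached 2-fold. Selplg, the P-selectin ligand, read 3818 and 5594 (-0.52), and Rtn4rl1, a Nogo receptor-like protein, read 1940 and 3371 (-0.76). Ecscr, an adhesion-related protein first described in endothelial cells, read 155 and 283 (-0.83 [-1.18, -0.49]), again with an interval across 2-fold. It lay past 2-fold under 4 of 14 other processing settings.

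Of the 7 secreted, lysosomal and Golgi proteins, 6 lay within 2-fold and 1 was past it downward (all measured genes: 15.6%), with a median of -0.14. The exception was Crybb1, which was listed in this group although a crystallin is not a protein of these kinds. Crybb1 is a beta-crystallin best known from the eye lens and known as a transcript of developing microglia. Its probes read 450 and 470 in atopic diathesis microglia, against 1290 and 1411 in control microglia. It was lower by a log2 difference of -1.52 [-1.68, -1.36], 2.87-fold. Both probes gave nearly the same value (-1.49 and -1.55), but they share the 38 bases shown in capitals and are no independent readings.

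The brightest secreted and lysosomal genes barely differed. Cst3, the protease inhibitor cystatin C, read 119120 in atopic diathesis and 137982 in control microglia (-0.18 [-0.34, -0.02]). Lgmn, the lysosomal protease legumain, read 39658 and 41602 (-0.04 [-0.20, 0.13]), and the secreted ribonuclease Rnase4 read 4786 and 5266 (-0.11 [-0.27, 0.06]). For both of these the difference was within the spot error. Sparc, a matrix-associated glycoprotein, read 6444 and 7723 (-0.23), and Olfml3, an olfactomedin-like secreted protein, read 1886 and 2127 (-0.14). Golm1, a Golgi membrane protein, was the one of this group above the median gene, at 878 and 625 (0.52 [0.36, 0.68]). Its value was 0.02 with the 75th percentile over all probes as the scale.

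Of the 5 transporters, lipid enzymes and other membrane proteins, 4 were measured, and 2 of these were past 2-fold upward (all measured genes: 17.3%) and none downward, with a median of 0.53. Lpcat2, which makes platelet-activating factor and remodels membrane phospholipids in macrophages, read 395 in atopic diathesis and 131 in control microglia. It was 3.09-fold higher, at 1.63 [1.28, 1.97]. Pmepa1, a TGF-beta-induced membrane protein that dampens TGF-beta signalling, read 69.5 and 30.5 on its measured probe, 2.33-fold higher (1.22 [0.64, 1.80], across the limit). These signals are near the lowest that counted as well above background, 19.9 on the atopic diathesis and 19.8 on the control array. The second Pmepa1 probe was detected in atopic diathesis alone and read 38.3 there and 19.0 in control microglia, at least 1.98-fold higher. Without background correction the Pmepa1 difference was 0.37, and it stayed past 2-fold under 8 of 14 other settings.

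Liph, a membrane phospholipase that releases lysophosphatidic acid, was detected in atopic diathesis microglia alone. Its probe is printed 10 times on each array. The spots read between 29.4 and 55.5 in atopic diathesis and between 4.69 and 11.2 in control microglia, and 10 and 0 of them were well above background. The spot ranges did not overlap. Liph was at least 1.95-fold higher, a bound set by the lowest control signal well above background. Its probe lies at chr16:21956003-21956062 (minus strand).
Liph, first 30 bases: ggaagaaaaccaaggttattttcggctgtg

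Slc2a5, a fructose transporter highly enriched in microglia, read 865 in atopic diathesis and 1339 in control microglia (-0.60 [-0.76, -0.44]). Serinc3, a multipass membrane protein of the serine incorporator family, read 1910 and 2187 over 3 probes (-0.16). Both lay within 2-fold.

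The cytoskeletal and membrane-shaping genes held the values at both ends of the signature, with 1 of 4 measured genes past 2-fold upward (all measured genes: 17.3%) and 1 downward (all measured genes: 15.6%). Fscn1, the actin-bundling protein fascin found in filopodia, read 230 in atopic diathesis and 61.2 in control microglia, 3.84-fold higher (1.94 [1.60, 2.29]). Abi3, an adaptor of actin regulators that carries a risk variant for Alzheimer disease in its human counterpart, read 434 and 1772, 3.99-fold lower, with an interval of the log2 difference of [-2.16, -1.83]. Of all measured genes, 5.39% had a lower value than Abi3, and 93.1% had a lower value than Fscn1. Each rests on a single probe. Bin1, a membrane-bending protein, read 5079 and 7847 (-0.59 [-0.76, -0.43]), and Nav3, a microtubule-associated neuron navigator, read 2803 and 2536 (0.18 [0.02, 0.34]). Basp1, a membrane-bound protein that interacts with the actin cytoskeleton, stayed at background on both arrays (18.7 and 10.4) and has no fold.

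Of the 6 members shared with other myeloid cells or leukocytes, none was past 2-fold in either direction (all measured genes: 32.9%). Above the median gene lay 4 of the 6 (all measured genes: 4602 of 9204, by construction), and the median of the 6 was 0.25. With the 75th percentile of all probes as the scale, this median was -0.25. Cd53, a leukocyte tetraspanin, read 495 in atopic diathesis and 280 in control microglia (0.85 [0.51, 1.20]). Aif1, the calcium-binding protein that is stained as Iba-1 to show microglia, read 667 and 465 (0.55 [0.39, 0.71]). Ly86, the MD-1 protein that pairs with the Toll-like receptor homologue RP105, read 2711 and 2676 (0.05 [-0.11, 0.21]). Cd68, a lysosomal membrane glycoprotein raised in phagocytic macrophages, read 2265 and 3234 (-0.48 [-0.64, -0.32]). Laptm5, a lysosomal membrane protein of blood cells, read 1837 and 2325 (-0.31 [-0.47, -0.15]). Ptprc, the leukocyte common antigen, read 84.9 and 63.8 (0.45 [-0.13, 1.02]), dim on both arrays and within the spot error.

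Probes of one gene did not always give the same answer. Of the 8 members with at least 2 measured probes, 5 had all probes either above or below the median gene (62.5%), as did 62.5% of the 1478 such genes over the whole array. The Cd68 probes were close (-0.58 and -0.38), and the second Nav3 probe stayed at background on both arrays. The range between probes had a median of 0.37 for these members, against 0.70 over all such genes. Serinc3 had the widest range, 1.02. The probe starting at base 1435 of its transcript read 1339 in atopic diathesis and 2089 in control microglia (-0.61), the one at base 2132 read 6339 and 7952 (-0.29), and the one at base 3557 read 820 and 630 (0.41). The Laptm5 probes start 108 bases apart. The upstream one read 2241 and 4010 (-0.81), and the downstream one read 1506 and 1348 (0.19). Both ranges exceed the interval for spots of that brightness. These probes lie at chr2:163451208-163451267, chr2:163450511-163450570 and chr2:163449086-163449145 (minus strand) for Serinc3, and at chr4:130490785-130490844 and chr4:130490893-130490952 (plus strand) for Laptm5.
Serinc3 at base 1435, all 60 bases: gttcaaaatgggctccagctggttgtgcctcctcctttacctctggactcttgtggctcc
Serinc3 at base 2132, first 30 bases: gtcagatatgtcacccaagtaaatgctttg
Serinc3 at base 3557, first 30 bases: atacctgtttttaacagtaggggaaccata
Laptm5 at base 1123, first 30 bases: aagagaatctggccaagcaatagttcctgg
Laptm5 at base 1231, first 30 bases: agtgtacaaacaaaacaattccttcaaata

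In both of these genes the probe nearest the 3′ end had the highest difference. The same held for Csf1r, with -0.31 at base 1841, -0.64 at base 2871 and -0.01 at base 3806. It held for Olfml3 (-0.37 at base 579 and 0.09 at base 1403) and for Selplg (-0.65 at base 1145 and -0.38 at base 1635). Sparc went the other way, with -0.13 at base 1303 and -0.32 at base 2240. Of the 6 members with probes at least 100 bases apart on one transcript, 5 had the higher difference at the 3′ end, with a median step of 0.38. Over all 685 such transcripts of the array the share was 56.9% and the median step 0.19. This comparison was chosen after the data were seen.

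**Figure D4:**
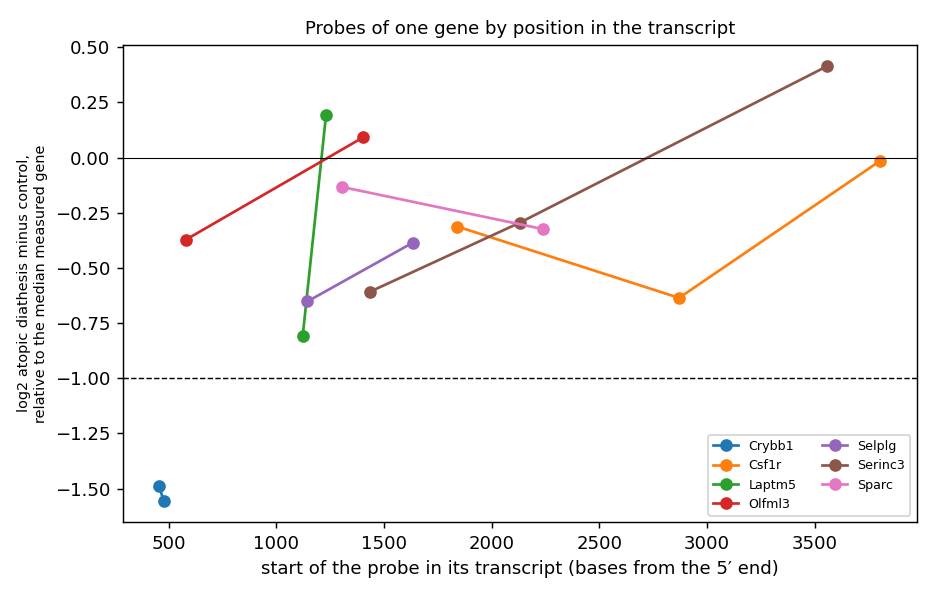
Log2 difference of single probes (vertical axis, atopic diathesis minus control, relative to the median measured gene) against the start of the probe in its transcript (horizontal axis, bases from the 5′ end) for 7 signature genes with several measured probes on one transcript. Lines join probes of one gene; Serinc3, Laptm5, Olfml3, Selplg and Csf1r end higher at the 3′ side, Sparc ends lower, and the Crybb1 probes overlap.

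Most other genes of the microglia signature, which are not among the 33, also lay within 2-fold. Of 30 such genes 29 were measured, 3 of them past 2-fold upward (all measured genes: 17.3%) and 1 downward (all measured genes: 15.6%), with a median of -0.09. P2ry12, a purinergic receptor of resting microglia, read 5203 in atopic diathesis and 5505 in control microglia (-0.05). The higher ones were the transcription factor Mef2c, with 327 and 29.7 (3.50), the adenosine receptor Adora3, with 1515 and 260 (2.58), and Entpd1, the surface enzyme that breaks down extracellular ATP, with 2455 and 1200 (1.07). The lower one was Mertk, a receptor for engulfing apoptotic cells, with 148 and 427 (-1.49).

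Of 12 genes listed around the CSF1 receptor, 8 were measured on both arrays, with a median of 0.05. None of these 8 reached 2-fold (all measured genes: 32.9%). Beside Csf1r these were the adaptor Tyrobp (-0.13), the adaptor Grb2 (-0.12) and the phosphoinositide 3-kinase subunit Pik3r1 (0.28). The others were Csf2ra, a chain of the separate GM-CSF receptor (0.56), and the transcription factors Runx1 (0.64), Irf8 (0.22) and Cebpa (-0.52). The ubiquitin ligase Cbl was detected in control microglia alone and was at least 3.09-fold lower in atopic diathesis. The ligand Csf1 was also detected in control alone, at least 1.24-fold lower. The other ligand, Il34, stayed at background on both arrays, as did the transcription factor Spi1.

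**Figure D5:**
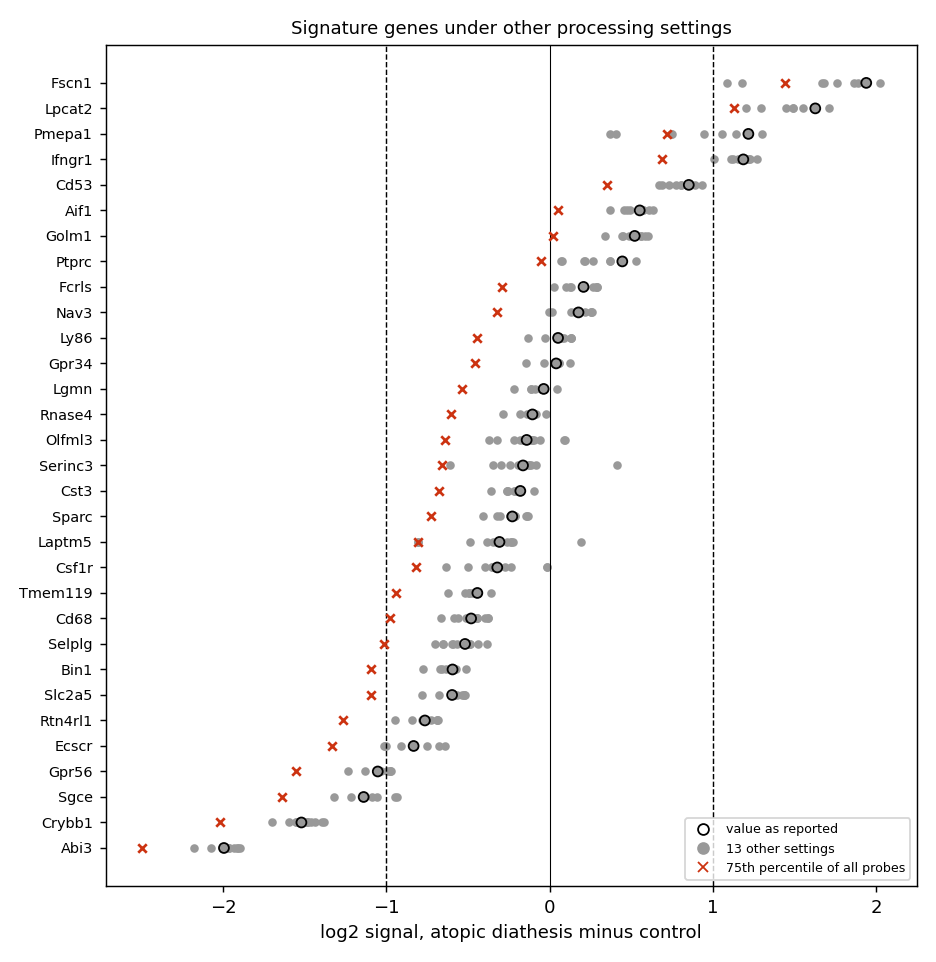
Log2 difference of the 31 measured signature genes (atopic diathesis minus control) as reported (open circles) and under 14 other processing settings, of which the one that uses the 75th percentile over all probes as the scale is marked by red crosses. Dashed lines mark 2-fold; Fscn1, Lpcat2, Abi3 and Crybb1 lie past it under each of the settings.

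The differences of at least 2-fold varied in how well they held when the values were processed in other ways. Fscn1 (1.09 to 2.02), Lpcat2 (1.13 to 1.71), Abi3 (-2.50 to -1.90) and Crybb1 (-2.02 to -1.38) were past 2-fold under all 14 other settings. Ifngr1 was past it under 13, Sgce under 12, Gpr56 under 10 and Pmepa1 under 8. None of these 8 genes changed sign under any of the 14.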

How the data were processed

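The authors deposited 1 scanner file per sample, giving for each spot a 1-colour Cy3 fluorescence intensity, unlogged, from the Agilent Feature Extraction software (version 10.7.1.1 per the file headers, 9.5.1.1 per the submitters' processing notes). The processed signal is background-subtracted and detrended per the file headers, with no scaling between arrays. The deposited series table holds an unlogged intensity per probe (median 6.64 in each column) whose sorted values were equal in both columns within 0.01 on the log2 scale. It was used as an alternative. Per the labels' protocols, TRIzol and column purification gave the total RNA, which was amplified and labelled with a low-input kit.

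Control spots (3671) and outlier spots (122 in atopic diathesis, 136 in control) were left out, spots of a probe averaged as log2, and measured probes of a gene averaged. Differences were taken relative to the median measured gene. A probe counted as well above background where most of its usable spots did. The number of arrays, 1 per group, limits the precision and allows no test. A bound (at least N-fold) divides the brighter signal by the dimmer array's detection limit, its lowest signal called well above background, or by the dimmer signal itself where that is higher, and is then set relative to the median gene, whose ratio of atopic diathesis over control was 0.978. Spot error came from 101 probes printed 10 times and measured on both arrays. The computation was checked on simulated data. Python 3.11.15, numpy 2.4.6, pandas 2.3.3, R 4.3.3 and limma 3.58.1 (normexp, offset 50) were used.

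Named are all 33 members, their probes where they have several, and genes of the other lists at least 2-fold from the median gene. For the CSF1 receptor axis, where no gene measured on both arrays was, all genes of the list are named. Of other cell types, the rule was to name the detected genes of each list. For brevity only those at least 2-fold apart, Mobp, Snap25 and the astrocyte genes are given, a choice made after the values were seen. The members and lists were chosen with earlier results of these data known. One probe sequence is not reported here.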

Additional observations from a re-analysis of the deposited data

How the results depend on the processing

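All 14 alternatives were run: other scalings, background corrections, filters and probe rules, the deposited series table, kept outlier spots and gene names by RefSeq accession. With the scale set by the 75th percentile over all probes, the members' median was -0.66, with 2 past 2-fold upward and 9 downward. That percentile, 28.6 in atopic diathesis and 20.7 in control, lies near the lowest signals well above background. Under the other alternatives the median lay between -0.33 and -0.01, and the counts were 3 to 5 higher and 3 to 5 lower. Relative to the median of all genes under the same setting, the members' median was between -0.33 and 0.05, positive with quantile normalization and the series table, so the sign of the shift depends on the scaling. Quantile normalization and the deposited table placed the median gene at -0.17. Of 434 values of single members, 376 moved by less than the spot SD of 0.20, 58 moved by more, and none past 2-fold changed sign. Among all genes, 1594 lay past 2-fold upward and 1435 downward (52.6% upward). The 75th percentile of all probes gave 987 and 2499 (28.3%), quantile normalization 1323 and 1828 (42.0%), the deposited table of the series, in turn, 1318 and 1819 (42.0%), normexp 1007 and 965, no correction 900 and 882, probes above background on at least 1 array 3924 and 2947, and no filter 5558 and 3048 (64.6%). No paired analysis was possible because each group has 1 array. Members with dim signals, such as Pmepa1, Ptprc and Liph, are limited by background. Single-probe members have no second reading.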

Other observations

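The neuronal marker Snap25 read 84015 in atopic diathesis and 82155 in control microglia (0.07). The value rests on 1 probe, and whether the signal comes from Snap25 transcripts of the sorted cells was not tested. Of the 10 genes of the neuron list, 8 stayed at background on both arrays.

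A higher difference at the probe nearest the 3′ end was counted over the whole array too. It held for 216 of 373 transcripts (57.9%) with probes over 500 bases apart, at a median step of 0.32, and for 174 of 312 (55.8%) with probes 100 to 500 bases apart, at a median step of 0.13. With both probes above a mean signal of 400 it held for 87 of 155 (56.1%), at a median step of 0.08. Transcripts are not independent replicates, and the steps spread widely: over all 685 transcripts the middle 50% lay between -0.57 and 1.06.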
